A study of Mus musculus with 6 samples.

Results

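The genes encoding a pair of ion-pumping ATPases, the vacuolar H+-ATPase (V-ATPase) and the sodium-potassium ATPase (Na,K-ATPase), were followed through single-cell RNA-seq of mouse small intestinal organoids. Members were all genes whose symbol starts with Atp6v, Atp6ap, Atp1a or Atp1b, 34 of the 32285 genes in the count matrices, and 32 of them are described. Of these, 25 are V-ATPase genes (13 of the V1 sector, 9 of the V0 sector and 3 accessory proteins), 6 are Na,K-ATPase genes, and Atp6v1fnb is a neighbour of Atp6v1f that is no pump subunit. The organoids were grown from duodenal crypts of 10-week-old mice and were sequenced on day 3 of growth. Wild-type (WT) organoids received 5 µM EIPA, an inhibitor of sodium-proton exchangers, in 2 libraries (+EIPA replicates 1 and 2), or the vehicle DMSO in 2 libraries (-EIPA replicates 1 and 2). A second organoid line, isolated as single clones after infection of WT organoids with the lentiviral vector TLCV2, carried a doxycycline-inducible Cas9-EGFP and a guide RNA. It gave 1 library without doxycycline (-Dox) and 1 with 2 µg/mL doxycycline (+Dox), and for the +Dox library live GFP-positive cells were sorted, against live cells for the other 5. Clone and WT, and doxycycline and the GFP gate, therefore cannot be told apart from the treatments they go with. The study asked how the control of intracellular pH bears on the intestinal stem cell lineage.

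The V-ATPase is a rotary pump that acidifies endosomes, lysosomes, the Golgi and secretory granules. Its cytosolic V1 sector hydrolyses ATP, its membrane V0 sector carries the protons, and the sectors can come apart and reassemble. The Na,K-ATPase sits in the basolateral membrane of intestinal cells, where it keeps the sodium gradient that drives sodium-coupled sugar uptake and sodium-proton exchange. Its alpha subunit carries out transport, and its beta subunit is needed for folding and delivery to the membrane.

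The 6 libraries kept 12083 to 18211 cells and 161670015 to 239368573 unique molecular identifiers (UMIs), with a median of 11477.5 to 17020 UMIs per cell, and any pair shared 33 to 78 cell barcodes. Cells were clustered with members left out of the genes used, and clusters were named from fixed markers as ISC-like (intestinal stem cell), proliferating, enterocyte-like, Goblet-like, Paneth-like, EEC-like (enteroendocrine), tuft-like and revival-like. Clusters without a clear name held 8.8 to 17.8% of a library's cells. The ISC-like cells of the -EIPA and -Dox libraries were mostly in cluster 5, those of the +EIPA libraries mostly in cluster 8, and 97.8% of the cells of cluster 12, also ISC-like, were from +Dox. Cluster 5 was led by Olfm4, Gkn3 and Lgr5. The 10 leading genes of cluster 8 held 2 fixed stem cell markers, Gkn3 and Olfm4, and 2 fixed proliferation markers, Mcm3 and Hells, with further genes of DNA replication. Comparisons of ISC-like cells between conditions are therefore comparisons between clusters that differ in such genes. Epithelial identity held in all libraries, since 9 non-epithelial markers summed to between 0.417 and 1.02 CPM (UMIs of a gene per 1e+06 UMIs of the cells summed). The EEC-like cells of the CRISPR line differed from those of WT, with 26 EEC markers at 5214 (-Dox) and 6476 CPM (+Dox) against 40833 to 49581 CPM in the 4 WT libraries.

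Upstream sequences are shown for the beta-subunit pair Atp1b1 and Atp1b3, whose levels went in opposite directions across cell classes, and for Atp6v0b and Atp6v1a, which with Atp1b3 were the 3 members whose window held the palindrome CACGTG. Each is the 250 bases before a RefSeq gene start (GRCm38.p6, 5′ to 3′ on the gene's strand, here the minus strand for all 4). For Atp1b3, 1 of several starts is shown. The Atp1b3 and Atp6v1a windows lie inside the genes of the GENCODE annotation, which start further upstream, at 96364442 and 44139705. Capitals mark the E-box CACGTG, the CCAAT box on either strand and the GC box GGGCGG on either strand.
Atp1b1, chr1:164458356-164458605: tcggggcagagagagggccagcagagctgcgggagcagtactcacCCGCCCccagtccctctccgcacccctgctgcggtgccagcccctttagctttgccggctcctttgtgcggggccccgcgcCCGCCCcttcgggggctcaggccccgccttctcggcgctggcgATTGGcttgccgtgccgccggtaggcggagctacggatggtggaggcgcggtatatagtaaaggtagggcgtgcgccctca
Atp1b3, chr9:96363716-96363965: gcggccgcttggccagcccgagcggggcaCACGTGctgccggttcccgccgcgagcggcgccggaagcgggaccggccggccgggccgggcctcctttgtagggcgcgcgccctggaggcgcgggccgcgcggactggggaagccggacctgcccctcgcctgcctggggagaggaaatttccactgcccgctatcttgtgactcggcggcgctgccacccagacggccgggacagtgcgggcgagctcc
Atp6v0b, chr4:117887330-117887579: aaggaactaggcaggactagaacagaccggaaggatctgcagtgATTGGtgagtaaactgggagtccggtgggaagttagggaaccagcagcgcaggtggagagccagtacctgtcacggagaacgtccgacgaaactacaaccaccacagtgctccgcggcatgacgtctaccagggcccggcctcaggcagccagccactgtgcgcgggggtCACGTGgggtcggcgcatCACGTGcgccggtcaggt
Atp6v1a, chr16:44139260-44139509: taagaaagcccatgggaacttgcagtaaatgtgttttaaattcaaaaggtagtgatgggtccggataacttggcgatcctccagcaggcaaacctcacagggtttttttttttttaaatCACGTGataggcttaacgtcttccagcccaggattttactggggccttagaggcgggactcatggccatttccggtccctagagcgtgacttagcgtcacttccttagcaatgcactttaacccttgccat
RefSeq windows were at hand for 23 members (27 windows, since some genes, such as Atp1b3, have several starts), and the same 250 bases before each start were searched. CACGTG, searched on both strands, was in 3 of the 27 member windows and in 6.02% of all 32851 windows of that length. The longer TCACGTGA, which contains it, was in the Atp6v1a window and in 0.785% of all windows. Of the other motifs, likewise on both strands, GGGCGG was in 14 of 27 member windows against 32.7% of all. CCAAT was in 8 against 33.8%, and TATAAA in 1, of Atp6v1e1, against 12.4%. The matches describe letters in these windows and were not tied to binding.

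One isoform carried nearly the whole signal of most subunits. Over all cells kept, 18 members averaged at least 5 CPM over the 6 libraries, 16 of the V-ATPase and 2 of the Na,K-ATPase, and 12 had fewer than 100 UMIs in all, of which Atp6v1g3 and Atp1a4 had none. The remaining pair, Atp6v1g2 and Atp6v0e2, held 1051 and 229 UMIs over the 6 libraries. In every class and library at least 98.3% of the UMIs of their isoform groups were from Atp6v1b2, Atp6v1c1, Atp6v1e1, Atp6v1g1, Atp6v0d1 and Atp6v0e, while the V0 a subunit and the Na,K-ATPase beta subunit had mixed groups. A 3′ tag counts a transcript once whatever its length, but capture differs between genes, so shares are compared between cell classes rather than read as protein ratios. Reads of Atp6v0c may be shared with 2 named pseudogenes, and Atp6v1e1 and Atp6v0a1 overlap other annotated genes on the same strand.

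Atp1b1 (ENSMUSG00000026576, GRCm38 chr1:164437109-164458355), the main beta subunit of the Na,K-ATPase, stood at 582 and 497 CPM in -EIPA, 682 and 634 in +EIPA, 664 in -Dox and 933 in +Dox. The +EIPA libraries lay above both -EIPA libraries and +Dox was the highest of the 6. Atp1b3 (ENSMUSG00000032412, chr9:96332655-96364442), the other beta isoform detected in quantity, kept between 44.3 and 51.1 CPM in all 6 libraries.

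Among V1 genes, Atp6v1a, the catalytic A subunit, was at 31.9 and 28.9 CPM in -EIPA, 32.0 and 31.7 in +EIPA, 40.6 in -Dox and 46.9 in +Dox. Atp6v1c1, the C subunit that takes part in joining V1 to V0, was at 24.7 and 25.9 CPM, then 25.2 and 25.8, 39.8 and 47.5 in the same order. In both genes the CRISPR libraries stood above all 4 WT libraries, whose own values were close together. The stalk subunits Atp6v1f and Atp6v1g1 ranged from 219 to 263 and from 207 to 242 CPM. Their +EIPA and -EIPA ranges overlapped, and -Dox was the lowest of the 6 libraries for both. In V0, Atp6v0c, a proteolipid of the proton-carrying ring, ranged from 204 to 253 CPM, and Atp6v0e, a small membrane subunit, from 159 to 249 CPM with +Dox the highest.

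**Figure D1:**
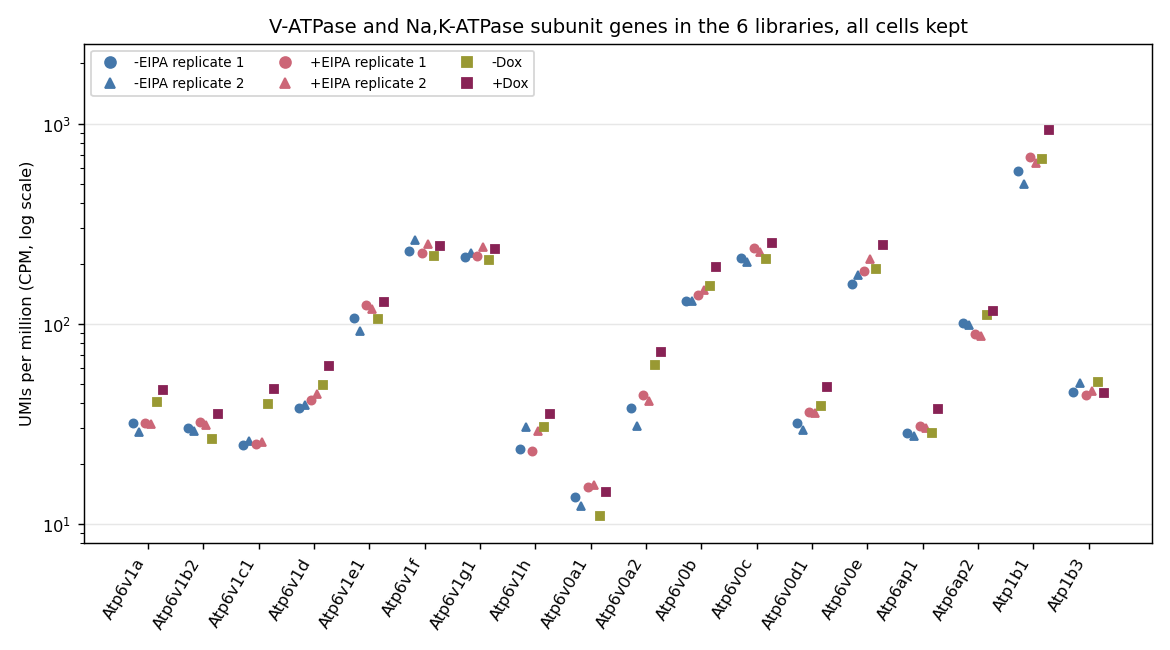
Level of the 18 members with at least 5 CPM, in CPM on a log scale, in each of the 6 libraries over all cells kept (points, 1 per library). Atp1b1 runs from 497 CPM in -EIPA replicate 2 to 933 in +Dox, while Atp1b3 stays between 44.3 and 51.1.

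Across cell classes Atp1b1 was highest in enterocyte-like cells, the absorptive cells of the villus. It was there at 1027 and 798 CPM in -EIPA, 1284 and 1282 in +EIPA, 1283 in -Dox and 1854 in +Dox, a mean of 1255 ± 353 (SD, n = 6). Revival-like cells came second, at 628 to 1278 CPM, and overlapped the enterocyte-like range. In ISC-like cells Atp1b1 ranged from 470 to 551 CPM. It had its lowest mean, 397 ± 21.2 CPM, in EEC-like cells, a range that overlapped that of other classes.

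Atp1b3 was ordered the other way. It was highest in EEC-like cells, at 68.1 and 70.8 CPM in -EIPA, 67.1 and 67.7 in +EIPA, 69.1 in -Dox and 62.6 in +Dox, all above the highest value of any other class, 60.8 CPM. With Harmony classes the ranges met, with a lowest EEC-like value of 62.6 CPM against 63.3 CPM elsewhere, while EEC-like cells stayed highest in every library. It was lowest on average in enterocyte-like cells, at 29.6 and 29.9 CPM in -EIPA, 23.1 and 24.5 in +EIPA, 36.6 in -Dox and 29.4 in +Dox. As a share of all beta-subunit UMIs, Atp1b3 made up 1.6 to 3.6% in enterocyte-like cells, 3.2 to 8.5% in revival-like cells, 6.4 to 7.3% in tuft-like cells, and 7.1 to 11.4% in Goblet-like, Paneth-like, ISC-like and proliferating cells. In EEC-like cells the share was 13.2 to 16%, higher than in any other class in every library. The high EEC-like share was present in the CRISPR libraries (15.2 and 13.2%), whose EEC-like cells had the low marker sums given above.

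By class mean, V-ATPase genes were mostly highest in EEC-like or revival-like cells, though most ranges over libraries overlapped those of other classes. Of the 18 members with at least 5 CPM, the highest class mean was in EEC-like cells for 9, against 32.8% of the 11064 genes at that level, in revival-like cells for 7 (14.4% of genes), in enterocyte-like cells for 1, Atp1b1 (10.8%) and in Paneth-like cells for 1, Atp6ap2 (3.80%). The EEC-like group was Atp1b3 with Atp6v1a, Atp6v1b2, Atp6v1c1, Atp6v1f, Atp6v1h, Atp6v0a1, Atp6v0d1 and Atp6ap1. The revival-like group was Atp6v1d, Atp6v1e1, Atp6v1g1, Atp6v0a2, Atp6v0b, Atp6v0c and Atp6v0e. EEC-like cells were highest in every library for 4 members (12.6% of genes) and revival-like cells for 2 (5.59%). Only 2 members of the EEC-like group and 1 of the revival-like group stood above every value of all other classes. In revival-like cells 18 enterocyte markers summed to 6682 to 33007 CPM and 8 revival markers to 616 to 3092 CPM. The part of these markers was not tested. ISC-like cells had the lowest mean for 8 members (1425 of the 11064 genes) and Paneth-like cells for 5 (2211 of the genes).

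Atp6v1b2 (ENSMUSG00000006273, chr8:69088646-69113711), the broadly expressed B subunit, showed the clearest class difference. Its EEC-like values were 136 and 107 CPM in -EIPA, 122 and 105 in +EIPA, 87.7 in -Dox and 97.6 in +Dox. No library of any other class passed 57.9 CPM, a Goblet-like value, and ISC-like, proliferating and enterocyte-like cells lay between 20.5 and 32.5 CPM. The 2 CRISPR libraries had the lowest of the 6 EEC-like values. Cluster 13, led by the progenitor gene Neurog3, held 297 of 406 EEC-like cells in -Dox and 537 of 696 in +Dox, against 161 of 492 and 379 of 1176 in -EIPA and 260 of 762 and 245 of 707 in +EIPA, and the part of this makeup was not tested. Atp6v0e was highest on average in revival-like cells, at 301 to 483 CPM, and overlapped the enterocyte-like range (207 to 403 CPM). Atp6v0c was highest in revival-like cells, at 347 to 440 CPM against at most 336 CPM elsewhere, and ISC-like cells held 158 to 205 CPM. Atp6v1h, a regulatory V1 subunit, reached 42.0 to 70.1 CPM in EEC-like cells and was highest there in every library, although its range overlapped that of tuft-like cells (29.4 to 45.1 CPM). Atp6ap1, an accessory protein of the V0 sector, was likewise highest in EEC-like cells in every library, at 53.0 to 65.3 CPM.

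**Figure D2:**
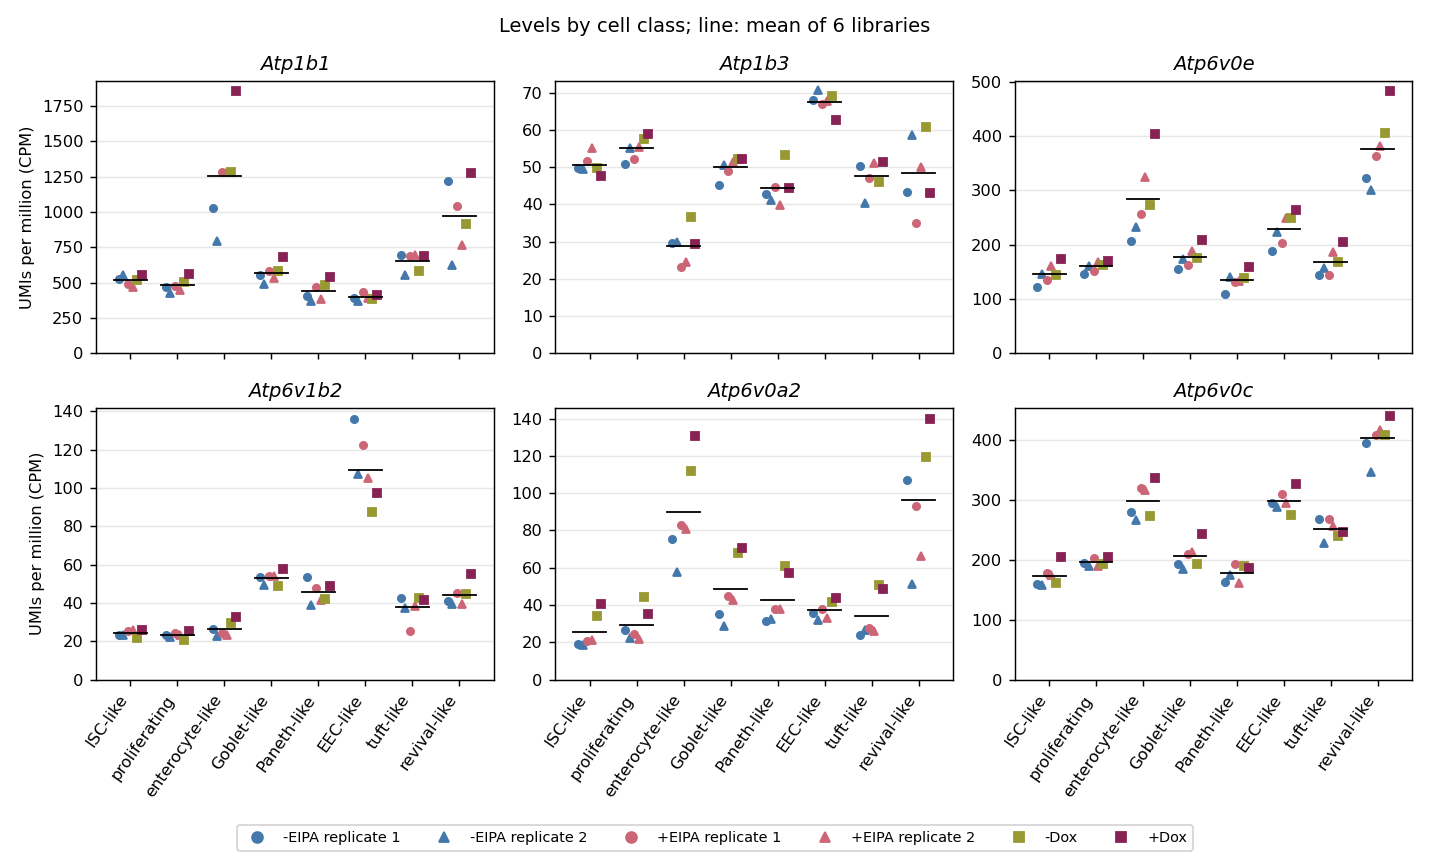
Levels of 6 members in CPM by cell class, with 1 point per library and a line at the mean of the 6 libraries. Atp1b1 peaks in enterocyte-like cells, where Atp1b3 has its lowest mean, and Atp6v1b2 stands apart in EEC-like cells at 87.7 to 136 CPM.

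The V0 a subunit, whose isoforms are known to place the pump in different compartments, was the V-ATPase subunit with mixed isoforms. Atp6v0a2 (ENSMUSG00000038023, chr5:124628576-124724455), associated with the Golgi and early endosomes, supplied 61.0 to 77.6% of the UMIs of the group over all cells, Atp6v0a1 13.6 to 24.8% and Tcirg1, the lysosome- and osteoclast-associated isoform, 7.2 to 14.7%. In EEC-like cells Atp6v0a1 (ENSMUSG00000019302, chr11:101009452-101063719), an isoform known from neurons and their vesicles, made up 39.7 to 45.5% of the group. Its share was 12.2 to 20.4% in enterocyte-like cells, 12.1 to 23.6% in ISC-like cells and 13.7 to 26.7% in proliferating cells. In Paneth-like, Goblet-like and revival-like cells it was 14.0 to 26.6%, 15.7 to 30.6% and 16.3 to 35.8%. Tuft-like cells ranged from 15.6 to 43.5% and overlapped the EEC-like range through 1 library, -EIPA replicate 1, at 43.5%. Atp6v0a2 in CPM was highest in revival-like (51.3 to 140) and enterocyte-like cells (57.8 to 131) and lowest in ISC-like cells (18.4 to 40.8).

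The CRISPR line had a smaller Atp6v0a1 share than WT. Over all cells the share was 23.3, 24.3, 23.4 and 24.8% in the 4 WT libraries and 13.6 and 15.4% in -Dox and +Dox. The CRISPR values also lay below all WT values in 7 of the 8 classes, and in revival-like cells the ranges overlapped. In CPM, Atp6v0a1 itself overlapped, at 10.9 and 14.4 in -Dox and +Dox against 12.3 to 15.7 in WT, while Atp6v0a2 was higher, at 62.2 and 72.3 against 30.9 to 44.2. With 1 library per condition and another organoid line this difference had no test.

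**Figure D3:**
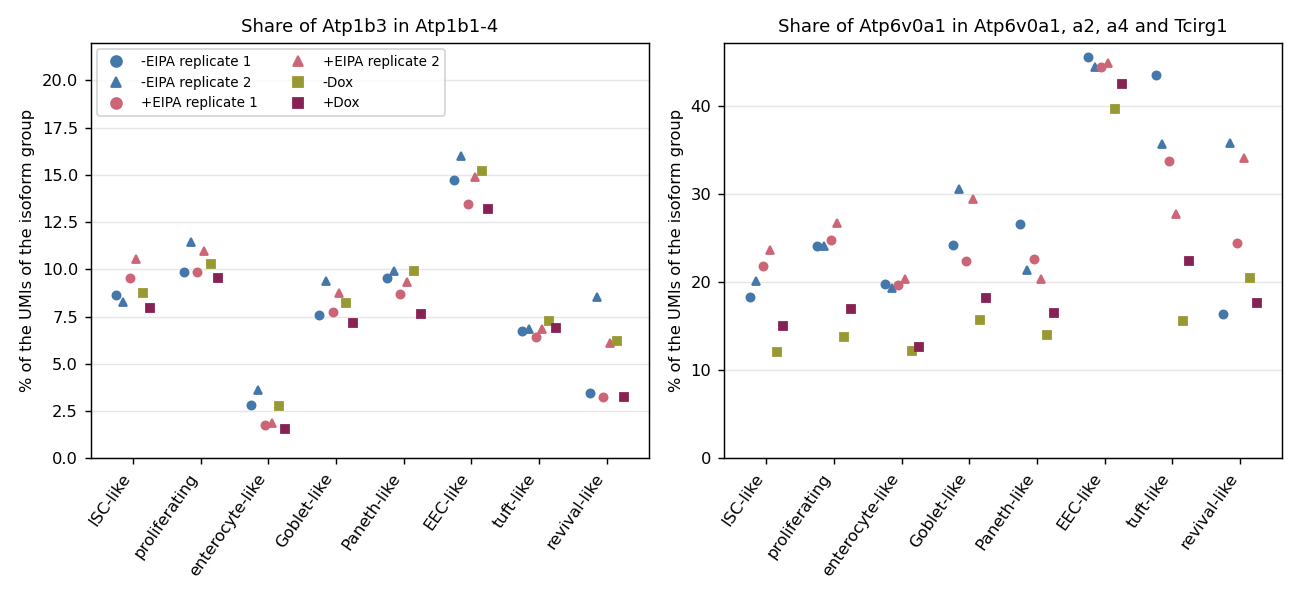
Share of Atp1b3 among Atp1b1 to Atp1b4 UMIs (left) and of Atp6v0a1 among V0 a subunit UMIs (right), in percent, by class and library (points). EEC-like cells hold 13.2 to 16% Atp1b3 and 39.7 to 45.5% Atp6v0a1.

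The 12 members with fewer than 100 UMIs passed the count filter of the edgeR fits in no set of cells. Atp6v0e2, chosen here after its values were seen, had 229 UMIs and its highest values in EEC-like cells, at 1.74 to 2.70 CPM in the 4 WT libraries and 0.304 and 0.904 CPM in -Dox and +Dox.

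The effect of EIPA was tested on summed counts of the 4 WT libraries with edgeR's quasi-likelihood test and Benjamini-Hochberg adjustment over all genes. Over all cells, 18 of 20 members tested had a positive log2 fold change, with a median of 0.21, while 49.3% of all genes were positive and their median was -0.00. No member passed an adjusted p of 0.05, nor did any of the 15890 genes (0% called). DESeq2 called 0 members among 2.53% of genes and edgeR gave 10 members an unadjusted p below 0.05, all with higher levels in +EIPA, against 10.1% of all genes. In both +EIPA libraries 11 members stood above both -EIPA libraries, an ordering that 13.5% of genes had, and Atp6ap2 stood below, as 33.6% of genes did. In these sums a change in the number of cells of a type and a change in RNA per cell cannot be told apart, and 18 of 18 enterocyte markers were also higher in both +EIPA libraries, with a sum of 15247 and 13434 CPM against 8652 and 4838 CPM. The part of the markers in the subunit changes was not tested.

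The study's records list the libraries numbered 1 as a first experiment and those numbered 2 as a second, and a fit with the experiment as a block called 4 members among 839 genes (5.28%), all higher with EIPA. The blocked log2 fold change was 0.37 ± 0.06 (SE) for Atp1b1 (adjusted p = 0.0436) and 0.40 ± 0.07 for Atp6v0a2 (0.0490). It was 0.37 ± 0.06 for Atp6v1e1, of the peripheral stalk (0.0493), and 0.33 ± 0.05 for Atp6v0e (0.0423). In the fit without the block the same genes had adjusted p values of 0.370, 0.371, 0.333 and 0.493. The 3 members of smallest p without the block were Atp6v0d1, which links the rotor to the ring, Atp6v1e1 and Atp6v0a1, at 0.32 ± 0.07, 0.36 ± 0.09 and 0.34 ± 0.09. Atp1b3 had a log2 fold change of -0.00 ± 0.10 and Atp6v1f of 0.03 ± 0.12. Atp6ap2, the accessory protein also known as the prorenin receptor, was at 89.1 and 86.9 CPM in +EIPA against 101 and 98.6 CPM and did not pass the test in either fit. Its +EIPA values were also below both -EIPA values in ISC-like, proliferating, enterocyte-like, Paneth-like, EEC-like, tuft-like and revival-like cells. In ISC-like and enterocyte-like cells 32.3 and 44.6% of genes had that ordering. Of the genes tested it was found for 3565 of 13533 in proliferating, 2804 of 11918 in Paneth-like and 2220 of 12274 in EEC-like cells. In tuft-like and revival-like cells it was found for 2233 of 9771 and 1649 of 10390.

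**Figure D4:**
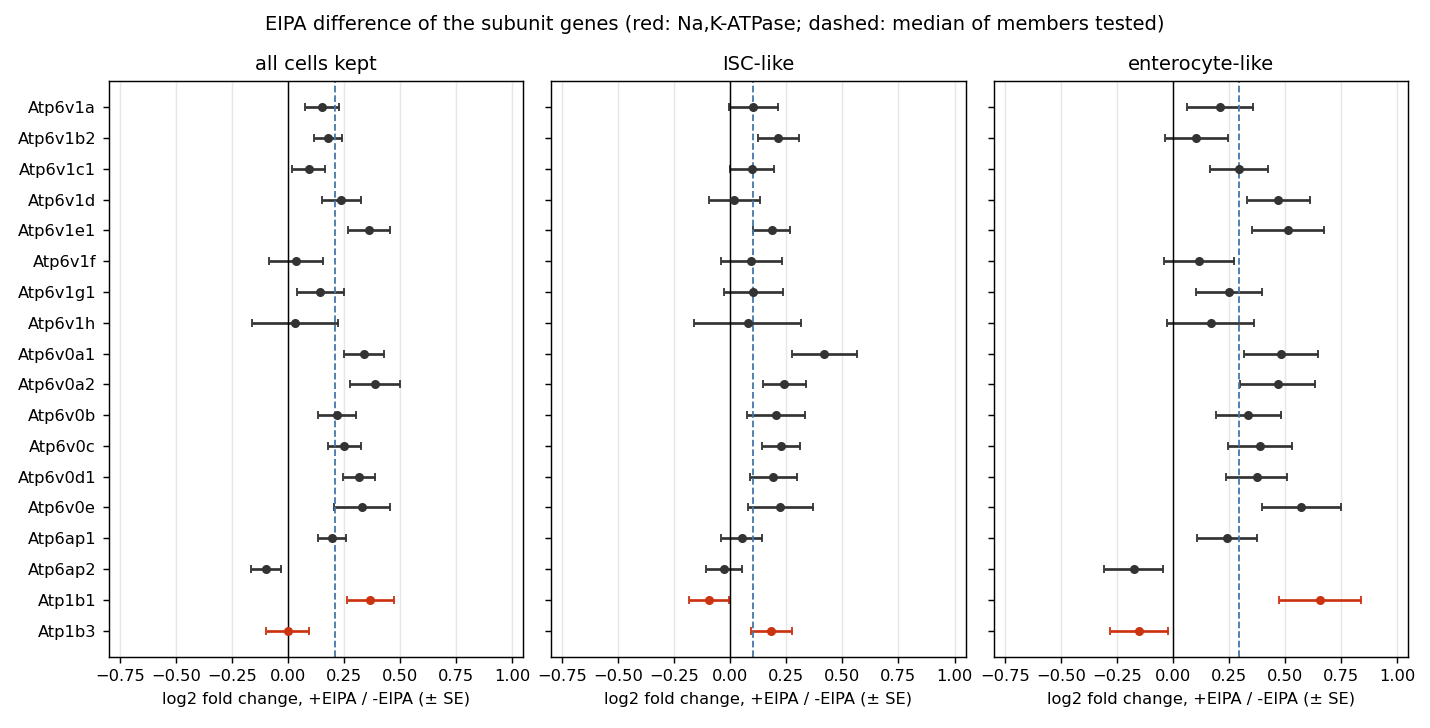
Log2 fold change of each member, +EIPA against -EIPA, with its standard error (bars), in all cells, ISC-like cells and enterocyte-like cells, from edgeR fits on 4 libraries without the block. The dashed line marks the median of the members tested, 0.21, 0.10 and 0.29, and none of the points passed the adjusted threshold.

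In ISC-like cells 16 of 19 members had a positive log2 fold change, with a median of 0.10 (all genes -0.01). edgeR called none of them and 1 of 12320 genes (0.00812%), DESeq2 called 0 members, and 3 members had an unadjusted p below 0.05, against 10.1% of genes. The experiment block called 5 members, Atp6v0a1, Atp6v0b, Atp6v0c, Atp6v0e and Atp6v1e1, among 14.5% of genes, all higher with EIPA. Atp6v0a1 was at 5.99 and 6.20 CPM in -EIPA and 7.36 and 8.08 CPM in +EIPA, and Atp6v0c at 160 and 158 against 177 and 175 CPM. Atp6v0a2 was at 19.0 and 18.4 CPM against 20.6 and 21.3 CPM. In all 3 the +EIPA libraries lay above both -EIPA libraries, as they did for 7 of the 19 members and 11.7% of genes, while 2 members and 32.3% of genes lay below. Atp1b1 lay the other way, at 489 and 470 CPM in +EIPA against 528 and 551 CPM, without a call in either fit. Its log2 fold change in this class, -0.10 ± 0.09, turned to 0.01 ± 0.10 with classes from Harmony-aligned clusters, where 19 of 19 members were above 0. The 15 ISC markers summed to 4693 and 3822 CPM in +EIPA and 6648 and 7835 CPM in -EIPA within this class, and their part was not tested. Most -EIPA cells of the class were in cluster 5 and most +EIPA cells in cluster 8, and Harmony classes held 1424 ISC-like cells in +EIPA replicate 2 in place of 2748.

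In proliferating cells edgeR called no member and none of 13533 genes (0%), with 0 members at an unadjusted p below 0.05 and 0 called by DESeq2, and the median of 20 members was 0.03. The sign of that median turned to -0.02 with library-size scaling, while the median of all genes went from 0.000462 to -0.0534. The block called Atp6v1e1, at 90.8 and 79.5 CPM in -EIPA and 97.8 and 89.3 CPM in +EIPA, among 10.4% of genes, and its groups overlapped. Next by p in the fit without the block, Atp6v1b2 was at 23.3 and 22.1 CPM against 24.1 and 23.1 CPM, with groups that overlapped by a narrow margin. In both +EIPA libraries 0 members stood above both -EIPA libraries and 2, Atp6v0b and Atp6ap2, stood below. Of the genes tested, 1311 stood above and 3565 below.

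Enterocyte-like cells had the highest median change. Of 19 members tested, 16 were above 0, the median log2 fold change was 0.29 and that of all 12474 genes -0.02. With library-size scaling the medians were 0.13 and -0.19. edgeR called none of the members among 0.152% of genes, with 8 members at an unadjusted p below 0.05 (18.5% of genes), while DESeq2 called 3 (Atp1b1, Atp6v0e and Atp6v1e1) among 2.87% of genes. In both +EIPA libraries 10 members stood above both -EIPA libraries and 3 below, against 13.6% of genes above and 44.6% below. Atp1b1 changed by 0.66 ± 0.18 (adjusted p = 0.145, edgeR), Atp6v1d, a rotor shaft subunit, by 0.47 ± 0.14 (0.165) and Atp6v0e by 0.57 ± 0.18 (0.168). Atp6v1d was at 48.2 and 50.1 CPM in -EIPA and 56.8 and 64.5 CPM in +EIPA, and Atp6v0e at 207 and 233 against 257 and 325 CPM. Both genes were higher in each +EIPA library than in either -EIPA library. The block called 6 members among 14.7% of genes, Atp1b1, Atp6v0a1, Atp6v0a2, Atp6v0e, Atp6v1d and Atp6v1e1, all higher with EIPA.

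The calls depended on which clusters were in the class. Its 18 enterocyte markers were all higher with EIPA and summed to 61973 and 59261 CPM against 44617 and 32310 CPM. The class joined 4 clusters, and the one led by mature enterocyte genes (cluster 4) held 32.3 and 41.0% of enterocyte-like cells in +EIPA and 23.8 and 26.7% in -EIPA. Another, cluster 9, had a median UMI count 0.33 times that of its libraries and held 26.3 and 21.7% in +EIPA and 39.2 and 29.6% in -EIPA. Without cluster 9, a check chosen after the data were seen, edgeR called none of the 19 members (3 at an unadjusted p below 0.05), and none with the block, where 1.48% of 12091 genes were called. The size of the changes was similar without it, at 0.52 ± 0.19 for Atp1b1 and 0.45 ± 0.16 for Atp6v0e (adjusted p = 0.460 and 0.459). In cluster 9 alone edgeR called 10 of 18 members among 1604 of 10541 genes. There Atp1b1 was at 755 and 633 CPM in -EIPA and 1276 and 1486 CPM in +EIPA, while the enterocyte markers went from 13032 and 7625 CPM to 31392 and 36983 CPM.

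**Figure D5:**
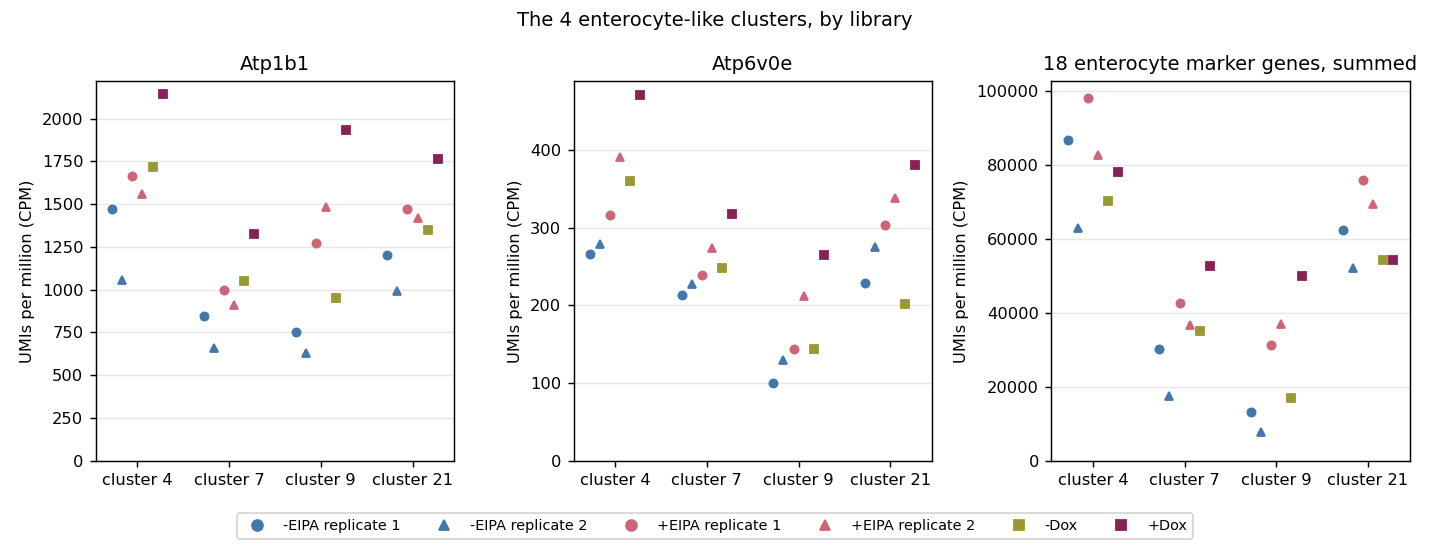
Atp1b1, Atp6v0e and the sum of 18 enterocyte markers, in CPM, in the 4 enterocyte-like clusters by library (points). In cluster 9 the Atp1b1 level goes from 633 to 755 CPM in -EIPA to 1276 to 1486 CPM in +EIPA, and the marker sum moves with it.

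Whether EIPA changed members differently in enterocyte-like and ISC-like cells was tested with a class by EIPA term and the library as a block. The term was called for 2 of 19 members, Atp1b1 and Atp6v1d, and for a similar share, 9.07%, of 13072 genes. For Atp1b1 the change in enterocyte-like cells exceeded that in ISC-like cells by 0.79 ± 0.13 on the log2 scale (edgeR, adjusted p = 0.00406). The +EIPA libraries were higher in enterocyte-like and lower in ISC-like cells in both experiments, but the lower level in ISC-like cells was not found with Harmony classes, as given above. Without cluster 9 the difference was 0.64 ± 0.16 (adjusted p = 0.0988), with classes from Harmony-aligned clusters 0.68 ± 0.16 (0.0548), and no member was called in either case. The share of all genes called fell as well, to 0.459% of 12847 genes without cluster 9 and to 2.08% of 13106 genes with Harmony classes. Between Goblet/Paneth-like and ISC-like cells no member was called among 5.73% of genes by edgeR, with 1 member at an unadjusted p below 0.05, and without -EIPA replicate 1 the count was 1 (Atp1b1).

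In the secretory classes no member was called without the block. In Goblet/Paneth-like cells the median of 19 members was 0.10, edgeR called 0.246% of genes and no member (1 at an unadjusted p below 0.05, 0 by DESeq2), and the block called Atp6v0a2 among 5.84% of genes. Atp6v0a2 was at 35.2 and 28.7 CPM in the Goblet-like cells of -EIPA and 45.1 and 42.8 CPM in those of +EIPA, and at 31.4 and 32.4 against 37.7 and 37.7 CPM in Paneth-like cells. Both +EIPA libraries were higher in both classes. In the joined class 16 of 18 enterocyte markers were also higher in both +EIPA libraries, with sums of 4208 and 3358 CPM against 2120 and 1721 CPM, and their part was not tested. In EEC-like cells the median was 0.03 (all genes 0.00149) and turned to -0.00677 with library-size scaling (all genes -0.0358). No member was called there among 0.0163% of genes, and 0 had an unadjusted p below 0.05. DESeq2 called 0 members, and so did the block, which called 0.961% of genes. In tuft-like cells, 187 to 414 per WT library, the median was 0.11, between -0.03 (without -EIPA replicate 2) and 0.16 over the alternatives, no member was called among 0.0512% of genes or among 0.829% with the block, 0 had an unadjusted p below 0.05 and DESeq2 called 0. Atp6ap2 was at 119 and 109 CPM in tuft-like cells of -EIPA and 83.1 and 91.4 CPM in those of +EIPA, with a log2 fold change of -0.30 ± 0.16. Revival-like cells, tested after the data were seen, numbered 107 and 157 in -EIPA and 393 and 646 in +EIPA, and edgeR called no member and none of 10390 genes (0%) with or without the block. Their median over 18 members was 0.16, 1 member had an unadjusted p below 0.05 (1.09% of genes), and 7 stood above both -EIPA libraries in both +EIPA libraries, as 6.72% of genes did. That member, Atp6v0d1, was at 42.5 and 43.7 CPM in -EIPA and 68.3 and 56.1 CPM in +EIPA.

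Genes that work with these pumps were counted in the same fits. None of 13 assembly and partner genes of the V-ATPase, 6 tested genes of the FXYD regulators and H,K-ATPase pumps and 28 lysosome genes was called over all cells by edgeR, nor in any class. Over all cells 7 had an unadjusted p below 0.05 (10.1% of all genes), and in a class at most 12, in enterocyte-like cells (18.5%). DESeq2 called 2 over all cells (2.53% of all genes) and at most 3 in a class, enterocyte-like cells (2.87%). Of the lysosome genes, whose lumen the V-ATPase acidifies, 22 of 28 were above 0 over all cells (median 0.15) and 21 of 27 in enterocyte-like cells (median 0.25). With the block, 8 of 27 lysosome genes were called in enterocyte-like cells, where 14.7% of all genes were, and all 8 were higher with EIPA. Among them was Neu1, the lysosomal sialidase, at 33.7 and 27.1 CPM in -EIPA and 45.1 and 48.4 CPM in +EIPA. Ctsl, a cysteine protease, was at 18.7 and 22.6 CPM against 24.7 and 35.1 CPM. Fxyd4, a small regulator of the Na,K-ATPase, was at 0.767 and 0.844 CPM over all cells in -EIPA and 0.375 and 0.185 CPM in +EIPA, without a call over all cells in either fit. With the block 2 of the 4 tested genes of this list were called in proliferating cells, where 10.4% of all genes were. Fxyd3, another member of the family, was higher with EIPA within each experiment, at 43.9 and 88.7 CPM in -EIPA and 54.6 and 107 CPM in +EIPA, with groups that overlapped (adjusted p = 4.80e-06). Fxyd4 was lower, at 0.917 and 0.971 against 0.455 and 0.221 CPM (adjusted p = 0.000714). The block also called it in Goblet/Paneth-like cells, where the gene passed the count filter through the -EIPA libraries alone and the +EIPA values, 0.107 and 0.0802 CPM, rest on a few UMIs, so nothing is read from that call.

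The CRISPR line was compared without a test, since each condition was 1 library. Over all cells, 17 of 19 members with at least 100 UMIs were higher in +Dox than in -Dox, and the median log2 ratio of the 22 members with at least 10 UMIs was 0.26 (all genes -0.02). None of the 19 passed a log2 ratio of 0.5, which 12.5% of genes did. Atp1b1 had the highest, 0.49, at 933 CPM (95% exact Poisson interval 929 to 937) against 664 CPM (660 to 667). These intervals cover counting error alone. Atp6v1b2 had a log2 ratio of 0.42, at 35.6 against 26.6 CPM, and Atp6v0e of 0.41, at 249 against 187 CPM. Atp1b3 was lower, at 45.4 CPM (44.5 to 46.2) against 51.1 CPM (50.2 to 52.0). The enterocyte markers summed to 21709 CPM in +Dox and 10301 CPM in -Dox, and their part was not tested.

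Within classes the median log2 ratio of members was 0.28 in enterocyte-like, 0.23 in ISC-like, 0.17 in EEC-like, 0.0909 in Goblet/Paneth-like, 0.0778 in proliferating and 0.0641 in tuft-like cells, against -0.12, -0.10, 0.01, -0.12, -0.01 and -0.00 for all genes in the same order. These medians were not stable outside enterocyte-like cells. Without clusters held mostly by 1 library they were 0.46 in ISC-like and 0.33 in proliferating cells, with TMM scaling 0.21 in Goblet/Paneth-like cells, and with doublets removed -0.18 in tuft-like and 0.0564 in EEC-like cells. In enterocyte-like cells Atp6v0e and Atp1b1 had log2 ratios of 0.56 and 0.53, which were the 2 of 18 members with at least 100 UMIs above 0.5 (8.10% of genes), and Atp6v1c1 followed at 59.6 against 44.6 CPM. Cluster 4 there held 59.7% of enterocyte-like cells in +Dox and 32.8% in -Dox. In ISC-like cells Atp6v0a1 and Atp6v0d1 were the 2 of 18 above 0.5 (4.83% of genes), at 8.36 CPM (7.58 to 9.21) against 5.59 CPM (4.65 to 6.67) and at 33.2 against 22.4 CPM. Atp6v0b, a ring subunit, followed at 140 against 106 CPM. In the same cells the ISC markers summed to 5111 CPM in +Dox and 8646 CPM in -Dox and the enterocyte markers to 2911 and 1451 CPM, most +Dox cells were in cluster 12 and most -Dox cells in cluster 5, and their part was not tested. Of the members with at least 100 UMIs, none passed 0.5 in proliferating (6.39% of genes), Goblet/Paneth-like (3.87%), EEC-like (4.09%) or tuft-like cells (5.70%). In proliferating cells Atp6v0a2 was lower in +Dox, at 35.2 against 44.2 CPM, while Atp6v1b2 was higher, at 25.6 against 20.5 CPM. Cluster 16 held 1567 of the 2110 proliferating cells of +Dox and 1 of 7083 of -Dox, and its part was not tested. In EEC-like cells Atp6v1h was at 70.1 against 53.6 CPM and Atp6v1f at 344 against 267 CPM, and in tuft-like cells Atp6v0e was at 205 CPM (175 to 239) against 167 CPM (141 to 197). In revival-like cells, 349 in +Dox and 82 in -Dox, the median of 18 members was 0.17 (all genes -0.13), and Atp6v1a and Atp6v1c1 were the 2 above 0.5 (8.31% of genes). Atp1b3 was the 1 member lower in +Dox by more than 0.5 (16.3% of genes). Atp6v1a was at 84.5 CPM (78.3 to 91.0) against 53.3 CPM (40.4 to 69.0) and Atp6v1c1 at 73.0 CPM (67.3 to 79.1) against 47.7 CPM (35.5 to 62.7). The EIPA and doxycycline comparisons share no library, and over all cells 16 of 19 members were above 0 in both, against 34.0% of genes, while enterocyte-like and ISC-like cells gave 16 and 15 of 18 against 32.3 and 22.5% of genes. The counts were 14 of 18 in Goblet/Paneth-like (21.2% of genes), 13 of 18 in EEC-like (26.3%), 12 of 18 in proliferating (30.7%) and 4 of 9 in tuft-like cells (23.8%). The EIPA signs came from TMM-scaled fits and the doxycycline signs from CPM ratios, so these counts mix scalings. With library-size scaling, members above 0 with EIPA were 16 of 20 over all cells, 14 of 19 in ISC-like and 13 of 19 in enterocyte-like cells. They were 10 of 19 in Goblet/Paneth-like, 9 of 20 in EEC-like, 9 of 20 in proliferating and 10 of 18 in tuft-like cells. Of all genes, 28.9 to 40.9% were above 0.

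Both CRISPR libraries also stood apart from WT for part of the members. Of 20 members with at least 100 UMIs, 8 were above all 4 WT libraries in both CRISPR libraries, where 26.0% of genes were, and 2, Atp6v0e2 and Atp6v1g2, were below, where 14.9% of genes were. The 8 were Atp6v1a, Atp6v1c1, Atp6v1d, Atp6v1h, Atp6v0a2, Atp6v0b, Atp6v0d1 and Atp6ap2. Atp6v0a2 and Atp6v1c1 were above in all 7 sets of cells compared, as were 5.94% of the 7839 genes with at least 100 UMIs in each. Atp6v1c1 in ISC-like cells was at 35.2 and 40.2 CPM in -Dox and +Dox against 21.8 to 23.1 CPM in WT, so the separation was there without doxycycline.

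The genes whose level followed a member most closely over the 48 class-by-library sums were listed as a description. The sums of one library share its depth and those of one class share its cells. Atp1b1 was closest to Myo5b (Pearson's r = 0.93), a motor of apical traffic, and Epha1 (0.92). Atp6v1b2 was closest to Osbpl5 (0.94), and Atp1b3 to Katnbl1 (0.89), with r = -0.70 to Atp1b1.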

How the data were processed

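Mouse small intestinal organoids were profiled by 10x Genomics 3′ single-cell RNA-seq in 6 libraries. The deposited files are raw UMI counts per gene and cell barcode, made by the authors with Cell Ranger 6.1.2 on mm10 (GRCm38), with no normalization. Every column was used (0 columns of per-sample values were left out). Cells with at least 1000 genes and at most 20% mitochondrial UMIs were kept, 12083 to 18211 per library, and no doublets were removed in the main analysis. Cells were clustered on 45 principal components of 3000 variable genes at resolution 0.8 (Python 3.11.15, scikit-learn 1.9.0, igraph 0.11.9), with members and pathway genes left out. Counts were summed per library and class. +EIPA was compared with -EIPA with edgeR 4.0.16 (R 4.3.3), quasi-likelihood test, TMM scaling, filterByExpr and Benjamini-Hochberg adjustment at 0.05. The study's own single-cell test was not used, because cells are not replicates. The study describes the WT libraries numbered 1 and 2 as separate preparations. The p-values of the fit without the block therefore set the EIPA change against the spread between 2 preparations. Those of the blocked fit set it against how far the EIPA change differed between them. In both fits that spread is estimated with information shared across genes.

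Same-numbered libraries were paired, since the study's records list them as one experiment. Their deviations from the group means correlated at 0.690 over all cells and at 0.619, 0.739, 0.518, 0.525, 0.468 and 0.216 in ISC-like, proliferating, enterocyte-like, Goblet/Paneth-like, EEC-like and tuft-like cells. The blocked fit has 1 residual degree of freedom and the unblocked one 2. CRISPR libraries had no replicate: ratios are of CPM, with exact Poisson intervals at 95%, and genes with at least 10 UMIs entered medians. Over all cells every member of at least 5 CPM could be named, in a class the members past the threshold or the 3 of smallest p, and for doxycycline the 3 of largest ratio with at least 100 UMIs; pathway genes were named where called or by size of change. Some genes, the target of the guide RNA among them, are not reported here. Members and gene lists were chosen with earlier results of these data known. DESeq2 1.42.0, library-size scaling, no filter, stricter cell limits, Harmony, doublet removal, single-cluster classes and leaving out each library were alternatives. On simulated data with 200 changed genes, edgeR recovered 75.7% of log2 changes of 1 and 97.8% of changes of 1.5 in enterocyte-like cells (12474 genes). Smaller changes, such as the median of 0.29 for members in this class, were not simulated. Recovery at that size is therefore not known.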

Additional observations from a re-analysis of the deposited data

Results flagged for a closer look

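The EIPA change of 2 of the 19 members differed between enterocyte-like and ISC-like cells by an edgeR test of the class by EIPA term. Of all 13072 genes, over which p was adjusted, 9.07% were called. These shares were close, so the calls do not set the members apart from other genes. The difference was 0.79 for Atp1b1 (adjusted p = 0.00406) and 0.48 for Atp6v1d (0.0290) on the log2 scale, each toward a higher level in enterocyte-like cells. Without the low-UMI cluster 9 the differences were 0.64 and 0.35 and neither passed the threshold (adjusted p = 0.0988 and 0.248), which 0.459% of 12847 genes did. Over the 4 fits that each left out 1 library, the Atp1b1 difference ranged from 0.56 to 1.02 and stayed past the threshold, while Atp6v1d lost its call when either +EIPA replicate was left out (adjusted p = 0.271 and 0.357). With Harmony classes neither was called (0.0548 and 0.214), among 2.08% of 13106 genes. The enterocyte markers in the class moved with EIPA as well, and their part was not tested.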

How the results depend on the processing

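Fits with the experiment number as a replicate block called 4 members over all cells, 5 in ISC-like, 1 in proliferating, 6 in enterocyte-like and 1 in Goblet/Paneth-like cells, against 0 in each without it, and the pairing changed no call in EEC-like or tuft-like cells. In enterocyte-like cells, 4 members were called with no filter on low counts, among 1269 of 18830 genes, and 3 by DESeq2, and the median log2 fold change became 0.40 in both, over more low-count members. Classes made of a single cluster, chosen after the data were seen, gave 10 calls in cluster 9 (1604 of 10541 genes), and with the block 4, 1, 11 and 3 calls in clusters 4, 7, 9 and 21, among 973 of 10748, 658 of 11440, 2294 of 10541 and 350 of 7043 genes. With library-size scaling the median was 0.13 over all cells, 0.0264 in ISC-like, -0.0191 in proliferating, 0.0334 in tuft-like, 0.13 in enterocyte-like, -0.00677 in EEC-like and 0.0121 in Goblet/Paneth-like cells. It lay above the all-gene median by 0.211 over all cells, 0.107 in ISC-like and 0.316 in enterocyte-like cells (with TMM 0.212, 0.108 and 0.316). In proliferating, Goblet/Paneth-like, EEC-like and tuft-like cells this gap was 0.0344, 0.105, 0.0290 and 0.102 (with TMM 0.0330, 0.105, 0.0297 and 0.101). Harmony classes gave 0.0752 in ISC-like cells, doublet removal 0.0485 in proliferating and 0.0786 in Goblet/Paneth-like cells, and stricter cell limits 0.0837 in Goblet/Paneth-like and 0.0192 in tuft-like cells. In EEC-like cells doublet removal gave 0.0113. Leaving out 1 library at a time gave medians of 0.17 to 0.24 over all cells, 0.0399 to 0.22 in ISC-like, 0.0111 to 0.0817 in proliferating, 0.24 to 0.39 in enterocyte-like, 0.0383 to 0.14 in Goblet/Paneth-like and 0.0201 to 0.0605 in EEC-like cells. It gave 0 to 1 called members in enterocyte-like cells, with 1 (Atp6v0a2, among 598 genes) without -EIPA replicate 1, and 0 in the other sets of cells. Such fits assume that a single remaining library varies as much as the libraries of the other group.

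Members with a different EIPA change in enterocyte-like against ISC-like cells numbered 2. It stayed 2 with library-size scaling, where Atp1b3 was called (-0.43, adjusted p = 0.0347) and Atp6v1d was not (0.0678). The count was 4 with no filter (9.47% of genes called), 5 with doublets removed (17.6%) and 0 with Harmony classes (2.08%). Without the low-UMI cluster it was 0 (0.459% of genes), for cluster 4 and cluster 7 it was 0 (0.145 and 0.0570%), and for cluster 21 it was 1 (1.88%). With 1 library left out it was lowest, 1, when either +EIPA replicate was missing, and highest, 9, when -EIPA replicate 1 was missing and 26.8% of genes were called, and for Goblet/Paneth-like cells from 0 to 1. The median +Dox to -Dox log2 ratio with TMM scaling was 0.28 over all cells and 0.21 in Goblet/Paneth-like cells. It was 0.24 over all cells with stricter limits, 0.0564 in EEC-like cells with doublets removed, and 0.46 in ISC-like and 0.33 in proliferating cells without clusters held mostly by 1 library. No filter and DESeq2 test more genes, and leaving out a library leaves fewer samples. Library-size scaling in the EIPA fits moved the medians of members and of all genes by similar amounts. The cause of these shifts was not otherwise tested. Over the EIPA changes of 21 named pairs of a member and a set of cells, 237 alternative values kept their side of the threshold and 12 crossed it to a call. The class by EIPA calls of Atp1b1 and Atp6v1d were lost with Harmony classes and without cluster 9, and that of Atp6v1d also without either +EIPA replicate. Tuft-like cells of the CRISPR line, 83 and 57, limit what their ratios can show.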
